A study of Mus musculus with 2 samples.

Results

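The spliceosomal small nuclear RNAs (snRNAs) were examined as short fragments in small RNA libraries of mouse embryonic stem cells. The members were all 1383 GENCODE M21 genes of type snRNA, of 55450 mouse genes in that annotation, and their tags, a tag being a distinct sequence with its read count. A tag belonged to the snRNAs when its whole length matched an snRNA gene exactly and in sense and matched no miRNA hairpin, snoRNA or scaRNA. This gave 1865 tags with 29990 reads in the library of DMSO-treated cells and 184 tags with 2120 reads in the library of SC1-treated cells.

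The cells were J1, an established embryonic stem cell line of the 129S4/SvJae strain, held in 1000 U/mL LIF, the cytokine that keeps such cells undifferentiated. They received SC1 at 1 µM (also called pluripotin, a compound that supports self-renewal) or the same volume of its solvent DMSO for 6 h, with 1 library per condition and no replicate. Of the deposited DMSO list (18870345 reads) the lengths 18 to 31 nt were matched, and of the deposited SC1 list (1275599 reads) the lengths 15 to 17 nt. The lists hold different length classes, so treatment and tag length cannot be told apart, and each list is described on its own without a ratio or a test.

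snRNAs are the RNA cores of the spliceosome. U1 pairs with the 5′ splice site and U2 with the branch site, U6 takes over the 5′ splice site and forms the catalytic core with U2, and U5 holds the exon ends. U11 and U12 do the work of U1 and U2 in the minor spliceosome, and U7 acts outside splicing, in 3′ end formation of histone mRNA. All of these except U6 carry an Sm site, a short uridine-rich stretch around which a ring of Sm proteins closes; U6 is made by RNA polymerase III and binds the related Lsm proteins at its 3′ end.

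The annotation named a U type for 11 of the 1383 genes: Rnu1a1, Rnu1b1, Rnu1b2 and Rnu1b6 for U1, Rnu2-10 for U2, Rnu5g for U5, Rnu6 and Rnu6-ps2 for U6, and Rnu7, Rnu11 and Rnu12. No gene was named for U4, so no U4 count is given, and this does not mean that U4 gave no fragments. Types came from symbols, so any annotated U4 copy is counted among the genes without a type in their symbol. The other 1372 genes had clone-type symbols only. Of these, 871 were nearest in sequence to U6, 143 to U1, 58 to U7, 32 to U2 and 10 to U5, and 251 had less than 70% identity to any named gene. Tags fitted 667 genes in the DMSO list and 620 in the SC1 list, and 656 genes had none in either, but most of those matches were shared between copies.

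Fragments around the Sm site of U2 made up the main product, so its gene is shown first. Rnu2-10 lies on chr11:101658238-101658428 (plus strand, GRCm38), outside other genes, and its Sm site is in capitals.

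Rnu2-10: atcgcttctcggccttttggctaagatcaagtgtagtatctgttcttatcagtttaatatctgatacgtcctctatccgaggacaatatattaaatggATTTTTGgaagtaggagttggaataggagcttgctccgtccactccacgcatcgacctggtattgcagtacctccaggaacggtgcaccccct

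The tags with most reads are shown because the positions of their ends are what the results turn on. The capitals again mark the Sm site, and positions count from 1 at the first base of Rnu2-10.

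DMSO, bases 96 to 115, 2010 reads: tggATTTTTGgaagtaggag

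DMSO, bases 93 to 111, 1376 reads: aaatggATTTTTGgaagta

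DMSO, bases 96 to 114, 1233 reads: tggATTTTTGgaagtagga

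DMSO, bases 94 to 111, 1168 reads: aatggATTTTTGgaagta

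DMSO, a U2 copy without a type in its symbol, bases 96 to 121, 834 reads: tggATTTTTGgaactaggagttggaa

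SC1, bases 95 to 111, 771 reads: atggATTTTTGgaagta

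SC1, bases 94 to 110, 256 reads: aatggATTTTTGgaagt

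SC1, bases 95 to 110, 218 reads: atggATTTTTGgaagt

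SC1, bases 93 to 109, 58 reads: aaatggATTTTTGgaag

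All 9 of these tags are U2 fragments that hold the Sm site. The 5 DMSO tags took 22.1% of the snRNA reads of their list. The fifth tag of the SC1 list was a U1 fragment of 54 reads, bases 132 to 148 of Rnu1a1, and the 5 SC1 tags together took 64.0% of their list's snRNA reads.

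snRNA fragments were 0.159% of the DMSO reads in the length window (exact binomial 95% interval 0.157 to 0.161%) and 0.201% of the SC1 reads in theirs (0.193 to 0.210%). Intervals cover counting error only: the reads carry no molecular identifiers, so copies of 1 molecule made by PCR are counted separately. Reversed tags, a measure of chance matching, gave 0 reads in the DMSO list and 10 reads in the SC1 list. Of the snRNA reads, 3.74% in the DMSO list and 8.96% in the SC1 list also matched a gene of another class.

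U2 had the most reads of any type in both lists. In the DMSO list it held 13202 reads (44.0% of snRNA reads, 43.5 to 44.6%), followed by U1 with 7082 (23.6%) and U6 with 2846 (9.49%). Of the minor spliceosome's snRNAs with a type in their symbol, U12 had 677 reads and U11 had 361. U5 had 97 reads and U7 had 49, but nearly all of these also matched a gene of another class. All 49 U7 reads matched Grcc10, and 85 U5 reads matched B930036N10Rik, leaving 12 U5 reads and 0 U7 reads that matched no other class. Same-strand exons of these genes overlap snRNA genes: Grcc10 at Rnu7, and B930036N10Rik at Gm24871, a copy nearest to Rnu5g. The shared match therefore cannot tell whether such reads come from the snRNA or from the other gene. U6 kept 2150 reads that matched no other class, and U11 and U12 kept all of theirs. Genes without a type in their symbol held 5676 reads (18.9%) that fitted no named gene. In the SC1 list, U2 held 1566 reads (73.9%, 71.9 to 75.7%) and U1 held 444 (20.9%), whereas U6 had 24, U7 had 15, U11 had 8, U12 had 5 and U5 had 2. All 15 U7 reads and all 24 U6 reads of the SC1 list also matched a gene of another class.

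Per 100 nt of gene, the DMSO levels ran from 6912 reads for U2, 4318 for U1 and 2660 for U6 through 448 for U12 and 269 for U11 to 83.6 for U5 and 79.0 for U7. The 7SK RNA, a nuclear RNA of the transcription machinery, had 705 reads per 100 nt in the same list, below U6 and above U12. These levels put the reads of many copies on the length of 1 gene. Over the summed length of all genes of a class, the DMSO list had 19.0 reads per 100 nt for the 1383 snRNA genes. The 1558 snoRNA and scaRNA genes, the guides of RNA modification, had 137. The SC1 values were 1.35 and 2.38. The snRNA length takes in 656 genes without a tag in either list, which lowers its level, and such genes were not counted for the other class. In the SC1 list U2 had 820 and U1 had 271 reads per 100 nt, above 7SK at 47.7, while U7 with 24.2 and U6 with 22.4 were below it.

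**Figure D1:**
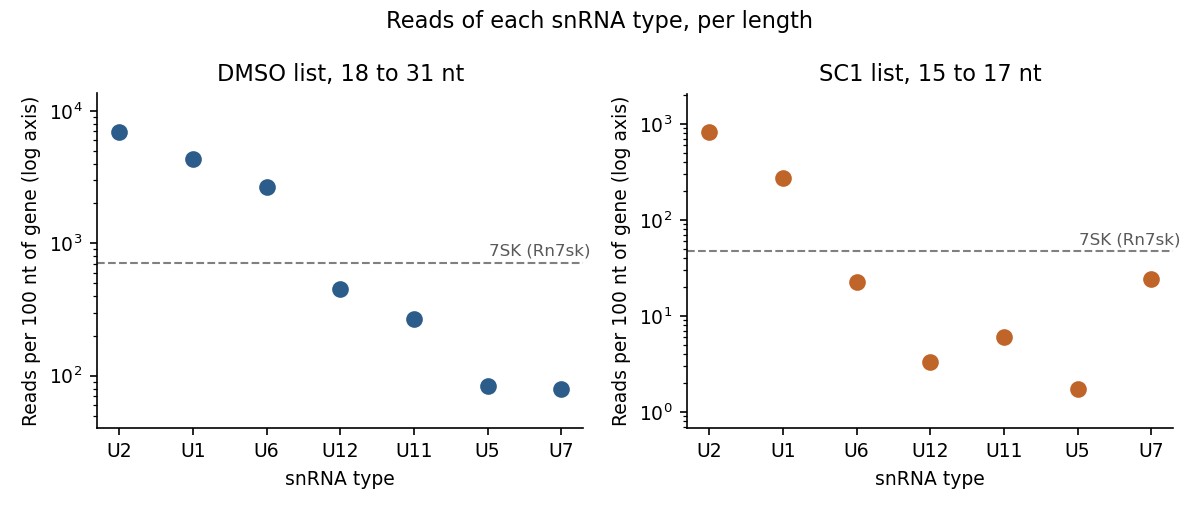
Reads per 100 nt of gene for each snRNA type (log axis) in the DMSO list at left (18 to 31 nt) and the SC1 list at right (15 to 17 nt), 1 library each; the dashed line is 7SK. U2, U1 and U6 lie above 7SK in the DMSO list, and only U2 and U1 do in the SC1 list.

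Taken over all types, few fragments reached the ends of the RNAs. Only 30 DMSO reads (0.100%) started within 2 nt of the first base of the snRNA, and 0 of 2120 SC1 reads did, which allows a share of up to 0.142%. Reads that ended within 2 nt of the last base numbered 657 (2.19%) in the DMSO list and 33 (1.56%) in the SC1 list. By type, this DMSO share was 51.0% for U7, 12.2% for U11, 10.7% for U6 and 3.18% for U1. It was 1.18% for U12 and 0% for U2 and U5. The share that evenly placed windows would give was not computed for the ends, so these values are a description. For tags of a named type the ends of the named gene were used; counting the ends of shortened copies as well gave 162 first-base reads (0.540%) in the DMSO list, all of the added 132 being U6 tags.

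Fragment length differed by type in the DMSO list. The median was 20 nt for U2, U5 and U7, 22 nt for U1 and U12, 23 nt for U11, 24 nt for U6 and 25 nt for genes without a type in their symbol. The most frequent length was 19 nt for U2 (25.2% of its reads), 22 nt for U1 (19.8%) and 24 nt for U6 (22.9%). In the SC1 list 17 nt was the most frequent length and held 68.0% of snRNA reads, at the upper limit of that list.

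The Sm site was searched in the RNA strand as ATTTTTG, or with a further T as ATTTTTTG, or in the form ATTTGTG known from U1 or the form ATTTGTC known from U7, and 245 of 1383 genes (17.7%) held at least 1 of these. Tags that held it carried 79.7% of snRNA reads in the DMSO list and 80.7% in the SC1 list. By type in the DMSO list, the share was 96.5% for U2, 90.0% for U12, 82.0% for U1 and 49.0% for U7, but 9.28% for U5 and 6.09% for U11. Windows of the same lengths laid over the whole gene would hold the site in 8.59% of cases for U2, 12.9% for U12, 11.1% for U1, 32.0% for U7, 15.2% for U5 and 14.0% for U11. The shares of U2, U12 and U1 were well above those of evenly placed windows. The U11 share was below its windows (exact 95% interval 3.86 to 9.08%), while the interval of the 97 U5 reads, 4.33 to 16.9%, took in the window value. These intervals cover counting error only, and the differences were not tested.

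**Figure D2:**
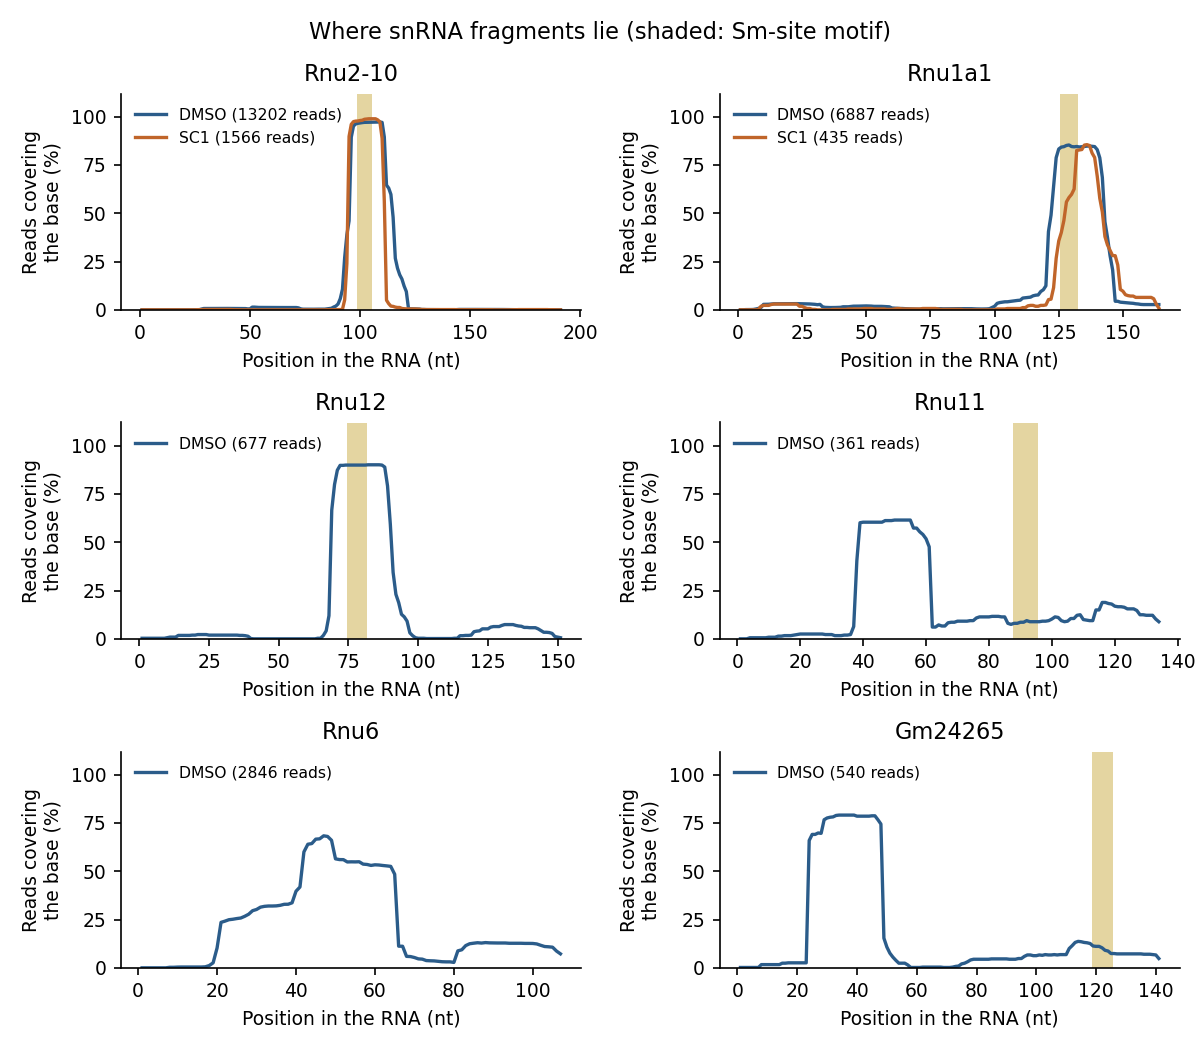
Share of a gene's reads that cover each base (y, percent) along 6 snRNAs (x, nt), for each list with at least 100 reads on the gene; the shaded band is the Sm-site motif, which Rnu6 lacks. In the DMSO list the best covered stretch takes in the band in Rnu2-10, Rnu1a1 and Rnu12, with the highest single base at 108, 129 and 82, and lies upstream of it in Rnu11 and Gm24265; the SC1 peak of Rnu1a1 is at base 136, past the band.

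U1, which recognises the 5′ splice site, gave fragments around its Sm site. In the DMSO list its starts were more scattered than those of U2: the most frequent start held 28.4% of Rnu1a1 reads and 43.3% of Rnu2-10 reads. The most frequent last base held similar shares, 22.8% and 24.9%. On Rnu1a1 (chr11:87422867-87423030, plus strand, in an intron of Tex14), the Sm site is at bases 126 to 132, and 85.3% of 6887 DMSO reads covered base 129. Starts fell mainly at base 121 (1956 reads, 28.4%), 124 (1052) and 123 (1039), and ends at base 142 (1573) and 146 (1302). The most abundant tag ran from base 121 to 142 and had 759 reads. U1 tags had a median length of 22 nt. In the SC1 list the most frequent start was base 132 (87 of 435 reads, 20.0%), at the last base of the Sm site, and the whole site was held by 37.8% of U1 reads. The bases ACTTACC that pair with the 5′ splice site (bases 3 to 9) were held by 8 DMSO reads (0.116%) and 0 SC1 reads.

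The named U1 copies could mostly not be separated. Of the 7082 DMSO reads of U1, 3922 (55.4%) fitted all 4 named genes and 2764 (39.0%) fitted Rnu1a1, Rnu1b1 and Rnu1b2 but not Rnu1b6. Among the named genes, Rnu1b6 alone was fitted by 171 reads (2.41%), Rnu1a1 alone by 95 (1.34%), and Rnu1b1 and Rnu1b2 together by 13 (0.184%). Tags of every one of these sets could still fit copies without a type in their symbol: 97.4% of U1 reads fitted 10 to 99 annotated genes.

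U2, which pairs with the branch site, gave fragments almost all of which covered the same bases. Base 108 of Rnu2-10 was covered by 97.3% of its 13202 DMSO reads, while 0 reads started within 2 nt of the first base or ended within 2 nt of the last. Starts were at base 96 (5718 reads, 43.3%), 93 (2170), 94 (1562) and 95 (961), all within the 6 bases before the Sm site at 99 to 105. Ends were at base 111 (3292, 24.9%), 115 (2805), 114 (1560) and 121 (1181). The branch-site pairing stretch TGTAGTA, bases 32 to 38, was held by 93 reads (0.704%).

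The ends of U2 fragments are given by their starts and lengths, which the length windows limit: with at least 18 nt, a DMSO tag that ends at base 111 cannot start after base 94. Fragments that ended at base 111 started at base 93 in 1376 of 3292 reads (41.8%), at 94 in 1168 (35.5%) and at 92 in 374 (11.4%). Fragments that started at base 96 ended at base 115 in 2010 of 5718 reads (35.2%), at 114 in 1233 (21.6%) and at 121 in 724 (12.7%). In the SC1 list the end at base 111 was again the most frequent (805 of 1566 reads, 51.4%), and it came with a start at base 95, the earliest that 17 nt allow, in 771 reads.

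The U2 copies fell into 3 groups that could be told apart inside these fragments. Rnu2-10 and 6 copies carry G at base 109 (the G form): Gm26316, Gm23849, Gm24950 and Gm23971, which lie with Rnu2-10 on chr11 between 101604850 and 101658428, Gm25813 on chr8 and Gm25202 on the X chromosome. In 5 copies the base is changed as G109C (the C form): Gm25360, Gm23472, Gm24497 and Gm25939 on chr1 between 72226240 and 72255198, and Gm23444 on chr11:83271498-83271688. Gm22973 on chr12:59040335-59040525 has A107G and G109A, and Gm24623 on chr5 shares its tags. Bases 88 to 125 are shown for a copy of each form, with the bases that differ from Rnu2-10 in capitals.

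Rnu2-10, G form: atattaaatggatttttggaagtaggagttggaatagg

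Gm23444, C form: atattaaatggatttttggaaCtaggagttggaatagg

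Gm25360, C form: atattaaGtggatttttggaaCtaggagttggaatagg

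Gm22973 form: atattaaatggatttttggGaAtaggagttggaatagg

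Of the DMSO reads that spanned the differing bases, 12834 (73.6%, 72.9 to 74.2%) were of the G form, 3270 (18.7%, 18.2 to 19.3%) of the C form and 1340 (7.68%, 7.29 to 8.09%) of the Gm22973 form. The C form was longer: its median length was 26 nt against 20 nt for the G form and 21 nt for the Gm22973 form. Tags of 26 nt or more held 69.8% of C form reads, 9.11% of G form reads and 7.99% of Gm22973 form reads.

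The forms differed at both ends of the fragments, but the starts of the C form depended on the copy. The most frequent start was base 95 for the C form (43.2%) and the Gm22973 form (30.0%), and base 96 for the G form (44.6%). The C form starts at base 95 were 925 reads on Gm25360, with G there, and 487 on Gm23444, with A. On either copy alone base 96 was the most frequent start, with the same 1169 reads (43.1% on Gm25360, 45.7% on Gm23444). At the 3′ end the forms differed as follows. C form reads ended at base 121 in 62.0% of cases and at base 111 in 2 reads (0.0612%), whereas G form reads ended at base 121 in 9.20% and at base 111 in 25.7%. The Gm22973 form ended most often at base 114 (42.3%). Among reads that shared the start at base 96, the end was base 121 in 71.3% of 1169 C form reads (68.7 to 73.9%) and in 12.7% of 5718 G form reads (11.8 to 13.6%). The intervals are far apart, but they rest on 1 library and cover counting error only.

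**Figure D3:**
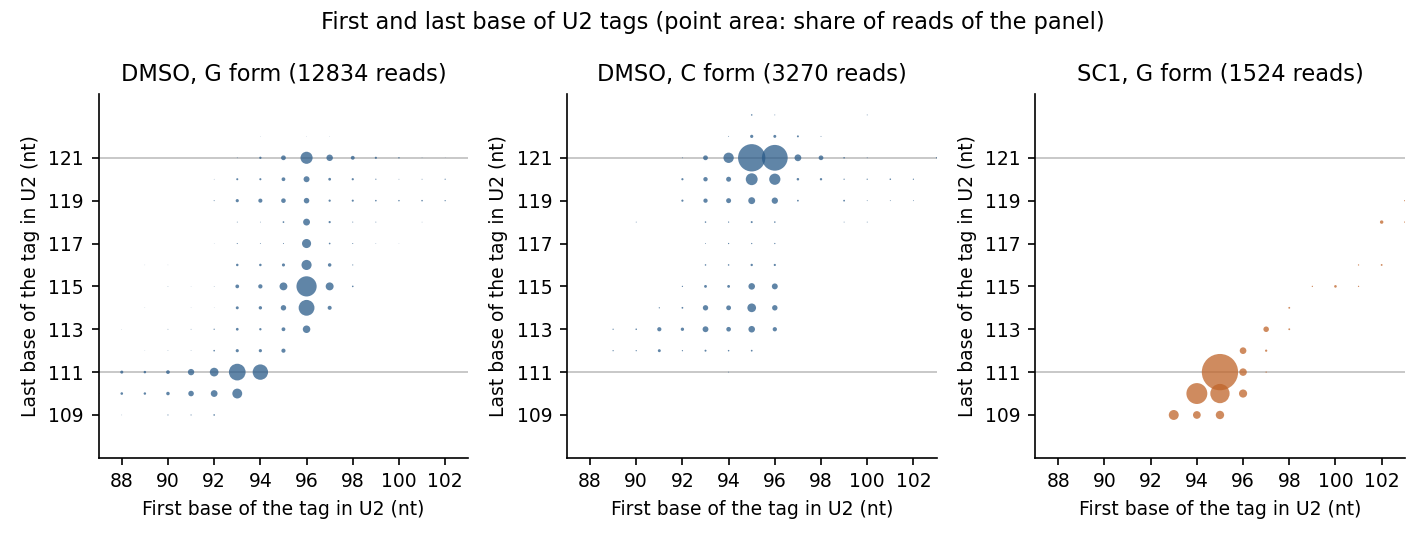
First base (x, nt) and last base (y, nt) of U2 tags that span the differing bases, with point area in proportion to the share of the panel's reads (rare starts and ends beyond the axes are not drawn); lines mark bases 111 and 121. G form reads of the DMSO list spread over ends from 110 to 121, C form reads gather at 121, and SC1 reads, limited to 17 nt, gather at 111.

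The share of the C form therefore changed with tag length. It was 1.45% of U2 reads at 18 nt (0.992 to 2.04%), 5.25% at 20 nt, 20.0% at 24 nt, 51.7% at 26 nt and 81.7% at 27 nt (79.4 to 83.8%). The rise was not even: the share was 8.74% at 21 nt and 7.73% at 22 nt, and 74.8% at 28 nt (68.8 to 80.1%) next to 27 nt, with overlapping intervals in both cases. In the SC1 list it was 1 of 1143 reads at 17 nt (0.0875%), and over all 3 lengths the C form had 1 read beside 1524 of the G form. An SC1 tag is too short to run from the Sm site to base 121, so its low C form count gives no level of the C form in those cells.

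**Figure D4:**
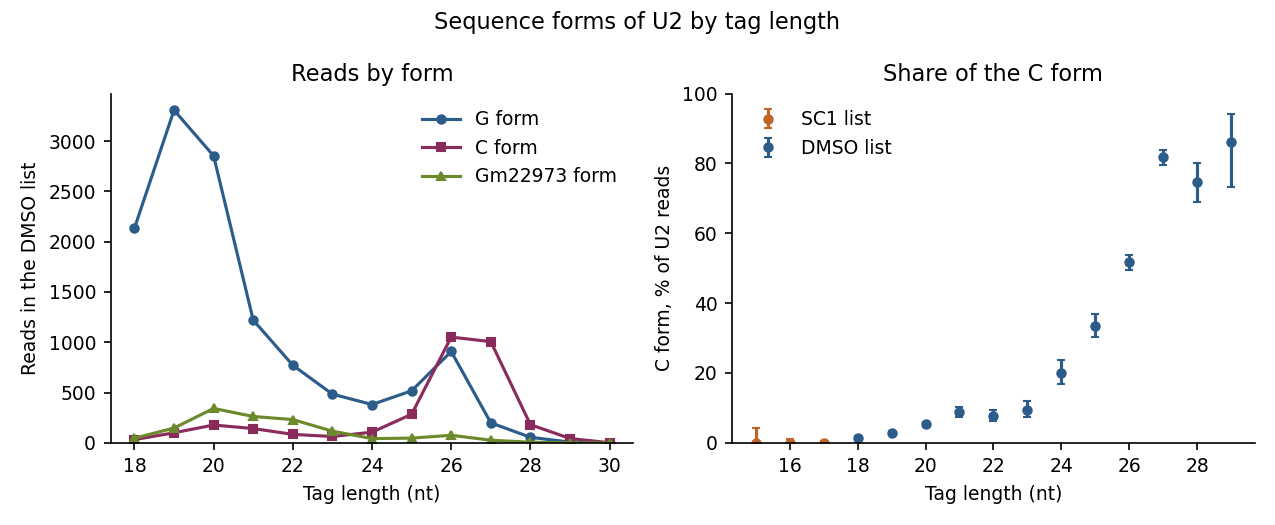
Left, reads of each U2 form by tag length (nt) in the DMSO list. Right, C form as a percent of U2 reads at each length with at least 50 reads, with exact 95% binomial intervals; the share is 1.45% at 18 nt, 81.7% at 27 nt and 74.8% at 28 nt.

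A second base split the C form. Gm25360 differs from the other C form copies by A95G, and of the C form reads that covered base 95, 1078 (55.3%, 53.0 to 57.5%) carried its G and 873 (44.7%) the A of the other copies. Gm25360 was thereby the gene with the most reads of tags that fit no other snRNA gene, 1090 in 46 tags, ahead of Rnu11 with 319 in 73 tags. Among the genes without a type in their symbol, Gm22973 came next with 286 such reads in 46 tags, and then Gm22710 with 79 in 31 tags. Gm22710 overlaps a same-strand exon of 2900060B14Rik, a gene of another class, so its reads are not unique beyond the snRNAs. The matches are to a reference genome of another strain than 129S4/SvJae, so a copy that differs between strains could be missed or misplaced.

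U5, which holds the exon ends, gave few reads, and most of those in the DMSO list lay at its 5′ end. The 2 SC1 reads instead held the Sm site at bases 88 to 95. On Rnu5g (chr9:65201726-65201841, minus strand, opposite an intron of Parp16), 74.2% of 97 DMSO reads covered base 16. The most frequent starts were base 9 (24 reads) and base 1 (13 reads), so 13.4% of U5 reads started at the first base. Its most abundant tag had 9 reads.

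U6, the catalytic snRNA, has none of the searched Sm motifs and gave fragments from its middle. On Rnu6 (chr17:13432033-13432139, minus strand), 68.3% of 2846 DMSO reads covered base 47. Starts were at base 42 (640 reads, 22.5%) and 21 (377), and 1062 reads (37.3%) ended at base 65. The ACAGAGA box at bases 41 to 47, which contacts the 5′ splice site, was held whole by 939 reads (33.0%); the 640 reads that start at base 42 leave out its first base. The most abundant tag, bases 42 to 65, had 497 reads and fitted 249 annotated genes. Ends within 2 nt of the last base made up 10.7% of U6 reads. Rnu6-ps2 was fitted by 261 DMSO reads and 0 SC1 reads, none of them its own alone.

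U12, the minor counterpart of U2, was also represented by its Sm site. On Rnu12 (chr15:83149644-83149794, plus strand), 90.1% of 677 DMSO reads covered base 82, next to the Sm site at bases 75 to 81. Base 69 was the start in 370 reads (54.7%), and ends were at base 90 (169) and 89 (134). The most abundant tag, bases 69 to 90, had 107 reads and is shown with the Sm site in capitals for comparison with the U2 tags.

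Rnu12 tag: agaagaATTTTTGagcgggtat

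U11, the minor counterpart of U1, differed in position. On Rnu11 (chr4:132270080-132270213, minus strand, opposite an exon of Gm28872), the Sm site at bases 88 to 95 was held by 22 of 361 reads (6.09%). Instead 61.5% of reads covered base 50, with starts at base 38 (129 reads) and ends at base 61 (150 reads, 41.6%). The most abundant tag, bases 38 to 61, had 96 reads. Tags that fit no other snRNA gene carried 319 of the 361 reads.

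Rnu11 tag: actcgattgctgtgcgtgcggaat

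U7, the histone snRNA, was read from 2 places, its 3′ end and its Sm site, with all reads also fitting the Grcc10 exon. On Rnu7 (chr6:124741225-124741286, minus strand, within an exon of Grcc10 and an intron of Gm45234), 25 of 49 DMSO reads started at base 43 and 25 (51.0%) ended within 2 nt of the last base. The Sm site at bases 22 to 28 was held by the other 24 reads (49.0%), which started mainly at base 22 (15 reads) and 21 (7 reads). The histone pairing stretch CTCTTTT at bases 12 to 18 was held by 0 reads. All 15 SC1 reads covered base 47, and the most abundant SC1 tag, with 10 reads, began at the same base as the most abundant DMSO tag, with 15 reads.

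Rnu7, DMSO tag: acttcggtcggaaaacccct

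Rnu7, SC1 tag: acttcggtcggaaaacc

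Reads of genes without a type in their symbol were mainly U2 copies in the DMSO list: 4670 of 5676 DMSO reads (82.3%) fitted genes nearest to U2, and 824 (14.5%) fitted only genes under the identity limit. Of the 56 such reads in the SC1 list, 14 (25.0%) fitted genes nearest to U2 and 32 (57.1%) only genes under the limit. Counting copies by their nearest named gene raised the U2 share of the DMSO snRNA reads from 44.0% to 59.6%. Beyond the U2 copies, Gm24265 (chr5:115489459-115489599, plus strand) was fitted by 540 DMSO reads, 342 of which (63.3%) started at base 24 and 319 ended at base 48. Its Sm-type motif at bases 119 to 125 was held by 40 reads (7.41%). Its most abundant tag had 298 reads and also fitted Gm24407, Gm22122 and Gm25179. Gm22710 (chr1:118459141-118459265, minus strand) likewise had an Sm-type motif that 0 of its 79 reads held, and 37 reads started at base 33. It overlaps a same-strand exon of 2900060B14Rik, a gene of another class that 79 untyped DMSO reads also matched. Gm25541 (chr2:27539805-27539930, minus strand) was fitted by 174 DMSO and 21 SC1 reads, of which 51 DMSO and 0 SC1 reads fitted no other snRNA gene.

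Gm24265 tag: tagccaatgaggtttatccgaggcg

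Gm22710 tag: aatgaacgcgtagtgagggcagta

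In the SC1 list, reads that fitted 1 snRNA gene only numbered 53 (2.50%). Rnu7 had 15 of them, Rnu11 had 7, and among genes without a type in their symbol Gm22973 had 4 and Gm25475 had 3, with several genes following at 2 reads. The DMSO list had 2113 such reads (7.05%). How far copies can be told apart differed by type: 97.5% of DMSO U2 reads fitted 2 to 9 genes, 99.8% of U6 reads fitted 100 or more, and 88.4% of U11 reads fitted 1.

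Nearly all SC1 fragments lay within DMSO fragments: 2106 of 2120 SC1 snRNA reads (99.3%), in 172 of 184 tags, were contained in a longer DMSO snRNA tag. The start of such a tag was shared by 98.3% of the reads and the end by 96.5%. These shares are a description, since abundant U2 tags supply most reads and many DMSO tags overlap there.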

How the data were processed

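The authors' deposited files hold, per library, each tag with its length and raw count, not normalized. The submitters' processing notes name the build mm9. The adapter and length filter are not given in the sources used. The list totals are those of length classes, not library depths. Whole tags were matched without mismatch, in the sense direction, to GENCODE M21 transcripts (GRCm38, the build of all coordinates); tags that also matched a miRNA hairpin, snoRNA or scaRNA were left out (27 DMSO and 4 SC1 reads). Types came from gene symbols. Nearest types used edlib 1.3.9.post1 with at least 70% identity, a limit set after the data were seen. That first and last bases are those of the named gene, where a tag fits one, was also settled after the values were seen. Members and lists were chosen with earlier results of these data known. Named were every type with its most abundant gene and tag (10 reads or more), the 5 top tags of each list, the 3 untyped genes with most reads of tags fitting 1 gene, and all U7, U11 and U12 genes; Gm24265, Gm25541 and the U2 forms were chosen after their values were seen. Intervals are exact (Clopper-Pearson) at 95%, and 3 counts set the limit where none were seen. The matching code was checked on simulated tags cut from the snRNA genes, which exact matching must find, so the check gives no error rate for real tags. Sequences of tags that fit a copy on 1 chromosome are not reported here, which takes in the U1 and U6 tags given here by position. Python 3.11.15, scipy 1.17.1 and matplotlib 3.10.9 were used.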

Additional observations from a re-analysis of the deposited data

Results flagged for a closer look

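Reads on the opposite strand of snRNA genes lie outside the sense matches described above. The DMSO list held 15 such reads in 10 tags, the most abundant with 3 reads on Gm25475, beside 0 sense matches of reversed tags. The SC1 list held 10 such reads in 5 tags, the most abundant with 6 reads on Gm26446, which is above the limit that a count of 0 allows but equal to the 10 reads of reversed tags in that list.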

How the results depend on the processing

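No paired analysis was possible because no result came from a test and each group was a single library. U2 stayed the type with the most reads of the named types, and Sm-site tags stayed most of the reads, under every setting that counts reads; counting distinct tags changed both. Counting each tag once gave, for DMSO and SC1 in turn, 0.206% and 0.277% for the snRNA share, 14.5% and 23.9% for U2, 30.3% and 27.7% for the Sm site and 22.2% and 21.2% for reads fitting 1 copy, with 1.02% at the first base and 37.6% for the C form in DMSO. Tags of at least 2 reads gave 45.0% and 76.5% for U2, 81.6% and 83.9% for the Sm site, 6.36% and 0.992% for 1 copy and 0.0619% at the first base in DMSO. Tags of at least 10 reads gave 0.151% and 0.187% for the snRNA share, 48.1% and 84.2% for U2, 86.0% and 91.7% for the Sm site, 5.26% and 0.559% for 1 copy, and in DMSO 0% at the first base and 18.0% for the C form. Leaving out tags that match other genes gave 0.153% and 0.183% for the snRNA share, 45.7% and 77.1% for U2, 82.6% and 83.2% for the Sm site, 0.0346% at the first base in DMSO and 1.40% for 1 copy in SC1; it left U7 at 0 reads in both lists and U5 at 12 in DMSO. Windows of 18 to 26 nt and 17 nt gave 0.165% and 0.268% for the snRNA share, 47.1% and 79.9% for U2, 80.7% and 86.2% for the Sm site, and in DMSO 4.54% for 1 copy and 12.8% for the C form. Removing 3′ A or T gave 0.162% and 78.6% for the snRNA and Sm-site shares in DMSO. Types from the nearest gene gave 59.6% for U2 in DMSO, and ends of any copy 0.540% at the first base, a setting added after seeing the data, as were all settings of the Sm-site and C form shares. The cause of these shifts was not tested beyond the construction of each setting. Keeping miRNA and snoRNA matches moved none of these values beyond their intervals.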
